A study of Mus musculus with 4 samples.

Results

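The autophagy genes described here are 39 genes of the core machinery and its cargo receptors, taken by gene symbol from a table of 49585 mouse genes. Each symbol was found in the table, and all 39 entered the set of 12669 expressed genes, those with an FPKM (fragments on a gene, scaled for its exon length and for the total of the library) of at least 1 in at least 1 library. Of the 39, 38 reached 1 FPKM in all 4 libraries, and Atg10 did so in LM_DFX only. RNA came from cultures of 2 clones grown from single cells of 4T1, a murine triple-negative mammary cancer line, 1 chosen for high (HM) and 1 for low (LM) metastatic capacity. Each clone received deferasirox (DFX), an iron chelator, at 50 μmol/L in DMSO for 48 h (HM_DFX and LM_DFX), or the DMSO vehicle for the same time (HM_Ctrl and LM_Ctrl). Every condition is 1 library, so no difference below has a replicate check or a p-value, and a metastatic class is represented by 1 clone. The libraries held between 14363065 and 21883855 fragments on genes.

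Autophagy encloses cytoplasmic material in a new membrane that closes into an autophagosome and then fuses with the lysosome. The ULK1 kinase complex starts the process, a class III PI3 kinase complex marks the growing membrane with the lipid PI3P, and lipid transfer and PI3P-binding proteins expand it. Ubiquitin-like conjugation attaches LC3 and GABARAP proteins to that membrane, and cargo receptors, of which p62 (Sqstm1) is the best known, bind ubiquitinated cargo and LC3 at the same time. The receptors are themselves degraded with their cargo, so transcript levels are no measure of autophagic flux.

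The 4T1 label was checked on marker genes. Of 9 epithelial markers, 7 were at 1 FPKM or more in every library, and Krt5 was listed at 0 in every library. Their summed FPKM was 1767 in HM_Ctrl against 565 in HM_DFX, and 2299 in LM_Ctrl against 1072 in LM_DFX, so it was lower with DFX in both clones, mainly through Krt8, Krt18 and Krt7. Krt19, on the same list, was at 101 FPKM in HM_Ctrl and 87.9 in HM_DFX but went from 46.4 to 103 in LM cells. The part of these markers in the results on autophagy genes was not tested. Leukocyte markers summed to at most 0.0550 FPKM, endothelial markers to at most 0.188, and both adipocyte markers were listed at 0. Among 5 fibroblast markers only Pdgfra reached 1 FPKM, and the list summed to between 3.50 and 5.63. In bulk RNA, fewer cells of a type and less RNA per cell cannot be told apart.

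Promoter sequences are shown for the 3 genes at least 2-fold higher with DFX in both clones (Sqstm1, Nbr1 and Atg14), for 2 that were so in 1 clone and hold a match to a searched motif (Uvrag and Atg101), and for Atg3, which holds most matches to the E-box core. They are the longest exon-free stretch upstream of the RefSeq start in GRCm38.p6, the patch release of mm10, read on the gene's strand from 5′ to 3′. Capitals mark CACGTG, the E-box core bound by TFEB, TFE3 and other factors, or ACGTG, a form of the hypoxia response element core. Both were marked on either strand, so that CACGT is the second motif read on the opposite strand. Other forms of that core, such as GCGTG, were not searched. Every CACGTG holds an ACGTG.
Sqstm1, chr11:50210828-50210889, minus strand: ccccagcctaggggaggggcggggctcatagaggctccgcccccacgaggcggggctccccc
Nbr1, chr11:101552586-101552653, plus strand: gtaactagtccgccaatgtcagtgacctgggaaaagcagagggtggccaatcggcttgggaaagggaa
Atg14, chr14:47568632-47568684, minus strand: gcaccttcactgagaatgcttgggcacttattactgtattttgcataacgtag
Uvrag, chr7:99141145-99141394, minus strand: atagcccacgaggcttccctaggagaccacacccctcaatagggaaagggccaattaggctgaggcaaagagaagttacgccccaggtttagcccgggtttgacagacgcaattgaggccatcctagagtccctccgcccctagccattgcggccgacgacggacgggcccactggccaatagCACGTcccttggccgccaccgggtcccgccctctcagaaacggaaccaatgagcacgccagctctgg
Atg101, chr15:101284051-101284271, plus strand: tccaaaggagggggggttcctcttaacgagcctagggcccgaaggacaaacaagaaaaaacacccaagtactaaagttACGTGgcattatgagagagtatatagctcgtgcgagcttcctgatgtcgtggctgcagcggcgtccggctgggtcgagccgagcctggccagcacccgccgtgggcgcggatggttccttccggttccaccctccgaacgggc
Atg3, chr16:45158707-45158784, plus strand: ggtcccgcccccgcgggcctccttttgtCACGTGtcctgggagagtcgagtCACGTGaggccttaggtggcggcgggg

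The RefSeq promoter table, with windows from 250 bases before to 50 after a start, held 37 windows for 33 of the 39 genes. Atg12, Atg16l1, Becn1, Map1lc3a, Pik3c3 and Rb1cc1 had no entry. CACGTG was present in 4 of the 37 windows (10.8%), those of Atg3, Atg5, Atg7 and Atg14, against 7.15% of all 32851 windows. The Atg14 match lay across the start itself, outside the stretch printed. The longer TCACGTG was in 3 windows (8.11%) against 3.77% of all windows, and ACGTG was in 15 (40.5%) against 19.6%. With only the first listed window of each gene, ACGTG was in 12 of 33, against 19.7%. These backgrounds take in genes not expressed here. For 28 of the 37 windows, a transcript of the gene held the bases just after the start. It did not for ACGTG windows of Atg2b, Atg4a, Atg5, Nbr1 and Tax1bp1, so their starts are less certain. The windows of the autophagy genes were also richer in G and C, with a median of 59.3% against 52.7%. Among windows with at least 55% G and C, ACGTG was in 10 of 24 (41.7%), against 25.4% of all such windows. None of these motifs was found in the windows of Sqstm1, Gabarapl1 or Optn. For Nbr1 the printed stretch is from a window without a match, while another window of the gene held an ACGTG at −139 from its start. A match is a description of the letters in a window.

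The level of the 39 genes spanned from 0.779 FPKM (Atg10 in HM_DFX) to 1376 FPKM (Sqstm1 in HM_DFX). The cargo receptors had the highest summed level, at 496 FPKM in HM_Ctrl against 1506 in HM_DFX, and 184 in LM_Ctrl against 841 in LM_DFX, most of it from Sqstm1. The LC3 and GABARAP proteins came next, with sums of 189, 286, 110 and 210 FPKM in the same order. The conjugation enzymes and ATG4 proteases had the lowest median level of the 7 roles in each library, between 4.14 and 5.45 FPKM. Members of the machinery other than receptors and LC3 and GABARAP proteins never passed 42.7 FPKM, the level of Atg101 in HM_DFX. The plot of levels by gene and library shows this order.

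**Figure D1:**
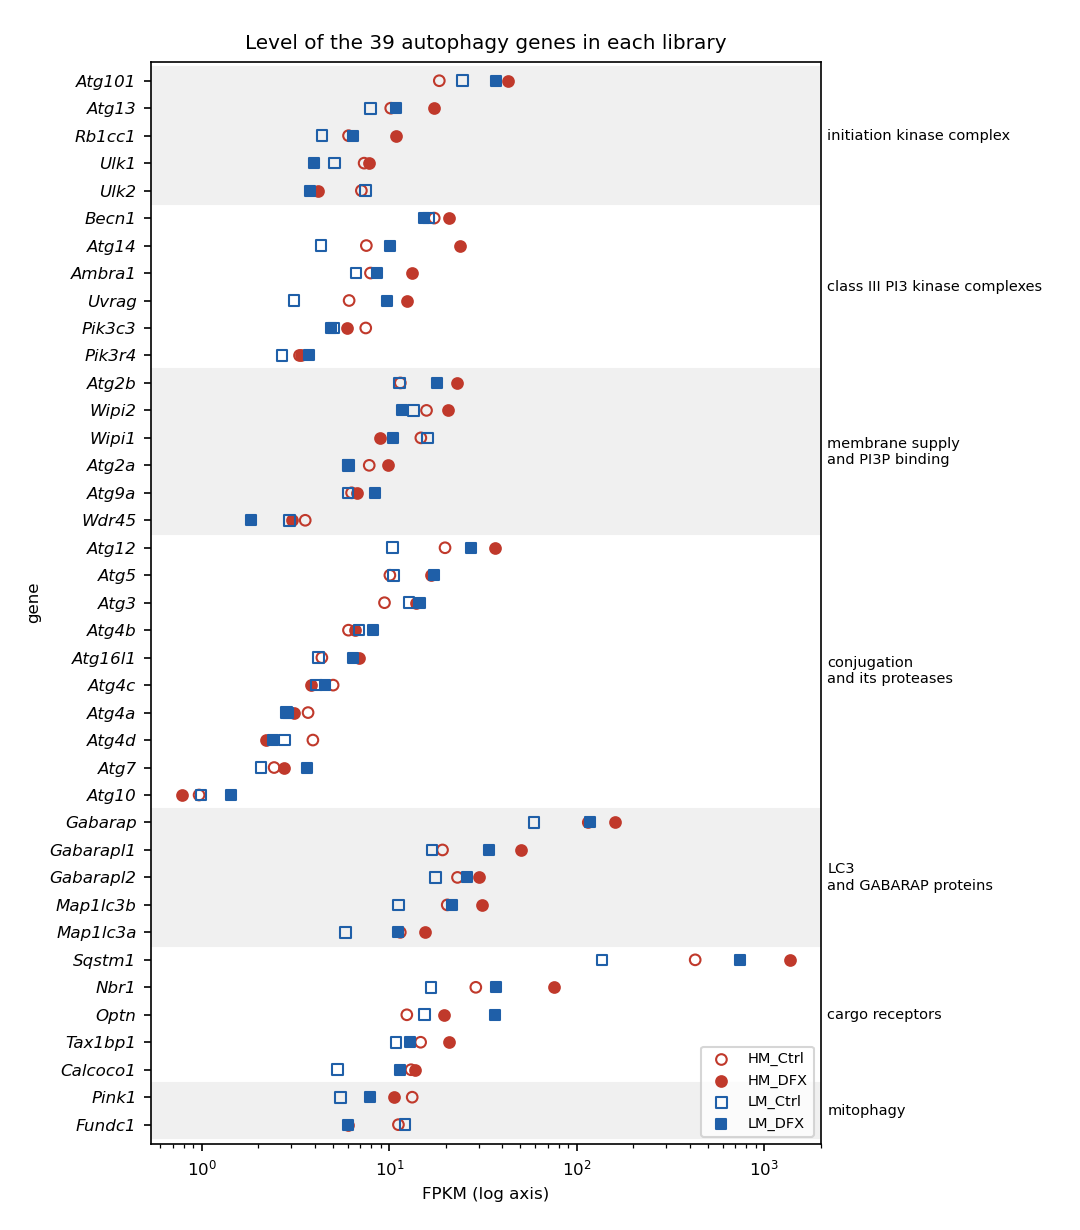
FPKM of the 39 autophagy genes on a log axis, grouped by role, with 1 point for each of the 4 libraries. Sqstm1 stands highest in every library, from 136 FPKM in LM_Ctrl to 1376 in HM_DFX, and Atg10 lies near 1 FPKM.

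DFX was compared with DMSO in each clone. Fold changes are log2 ratios of FPKM + 1, which understate the change of low genes, and a difference of at least 2-fold on that scale was called. In HM cells 5 of the 39 genes were at least 2-fold higher with DFX (Atg14, Atg101, Gabarapl1, Sqstm1 and Nbr1), which is 12.8%, against 6.93% of all expressed genes. No autophagy gene was at least 2-fold lower, against 12.4% of all expressed genes. With median-ratio scaling, which moved the median of all expressed genes in this comparison from −0.10 to 0.00, the shares of all genes were 8.90% higher and 10.1% lower, and 7 of the 39 were at least 2-fold higher, the same 5 with Atg2b and Uvrag. In LM cells 6 were at least 2-fold higher (Atg12, Atg14, Uvrag, Sqstm1, Nbr1 and Optn), or 15.4%, against 7.09%, and again none was at least 2-fold lower, against 8.72%. The median log2 fold change of the 39 genes was 0.37 in HM and 0.43 in LM cells, beside −0.10 and −0.04 for all expressed genes. The fold changes were above 0 for 29 of the 39 in HM cells (74.4%), against 43.7% of all expressed genes, and for 30 in LM cells (76.9%), against 46.8%. Fragments recovered from the FPKM gave exact 95% Clopper-Pearson intervals of the ratio, which cover counting error only and not variation between cultures. By these, 23 of the 39 genes were higher and 7 lower in HM_DFX, where 32.1% of the 10186 expressed genes with whole fragments at the annotated length were higher and 43.1% lower. In LM_DFX 26 were higher and 7 lower, against 34.6% and 40.1%.

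**Figure D2:**
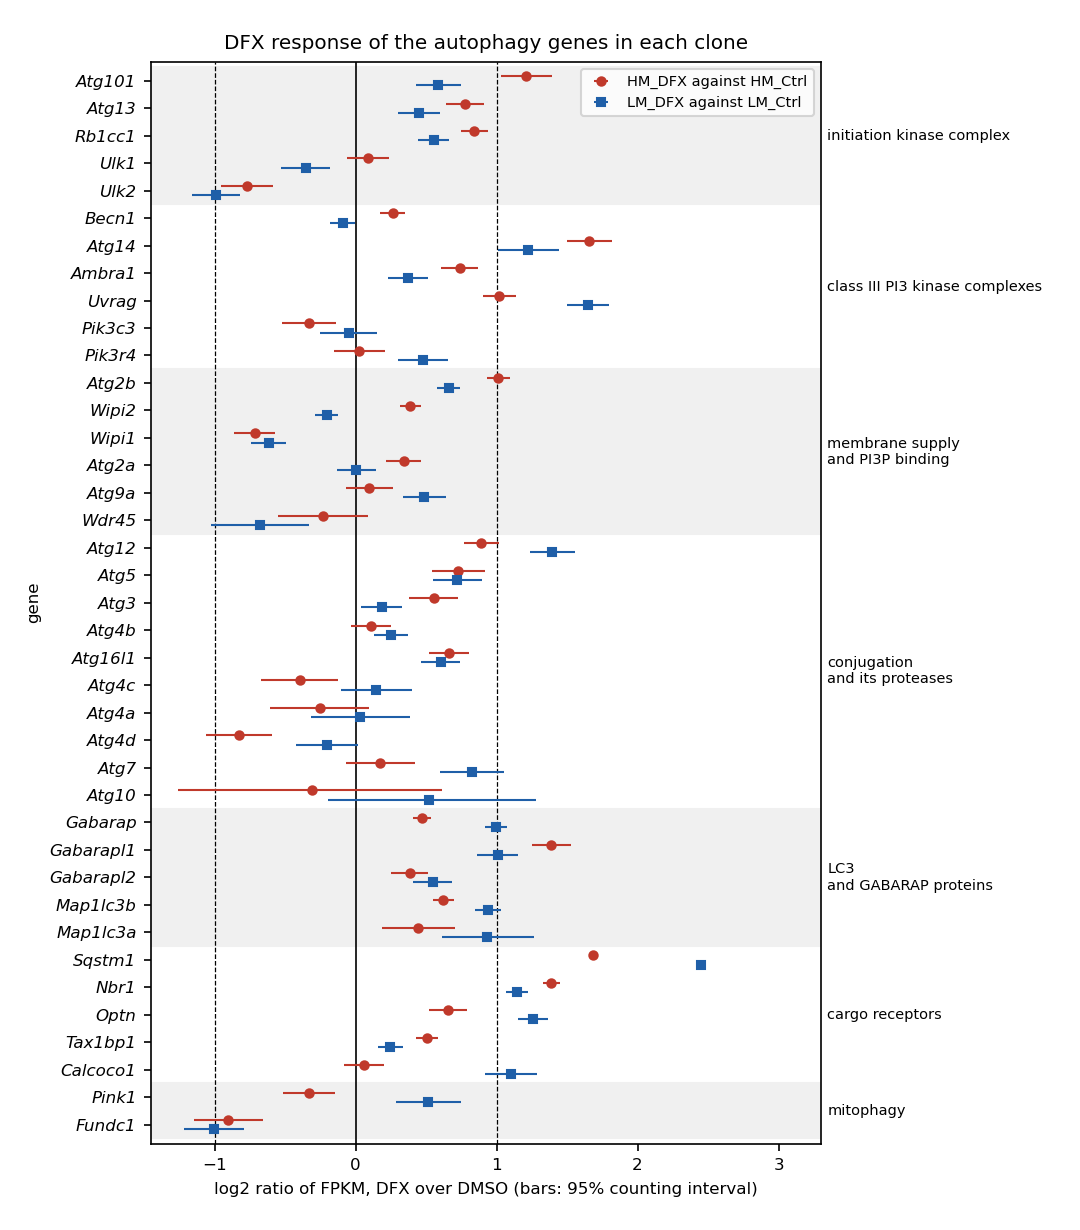
Log2 ratio of FPKM with DFX over DMSO for the 39 autophagy genes, in HM cells (circles) and LM cells (squares), with bars for the 95% counting interval and broken lines at 2-fold. Sqstm1 lies farthest to the right in both clones, and Ulk2, Wipi1 and Fundc1 lie left of 0 in both.

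The responses of the clones rest on separate libraries. Log2 fold changes were above 0 in both clones for 26 of the 39 genes (66.7%) and below 0 in both for 6 (15.4%), beside 33.5% and 42.4% of all expressed genes. They had opposite signs for 7, or 17.9%, beside 23.0% of all expressed genes. At least 2-fold higher in both clones were 3 genes (7.69%), beside 3.46% of all expressed genes, and at least 2-fold higher in at least 1 clone were 8 (20.5%), beside 10.6%. Pearson's r between the responses, across genes and as a description, was 0.79 for the 39 genes and 0.76 without Sqstm1, near the 0.72 over all expressed genes. Genes are not independent replicates.

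**Figure D3:**
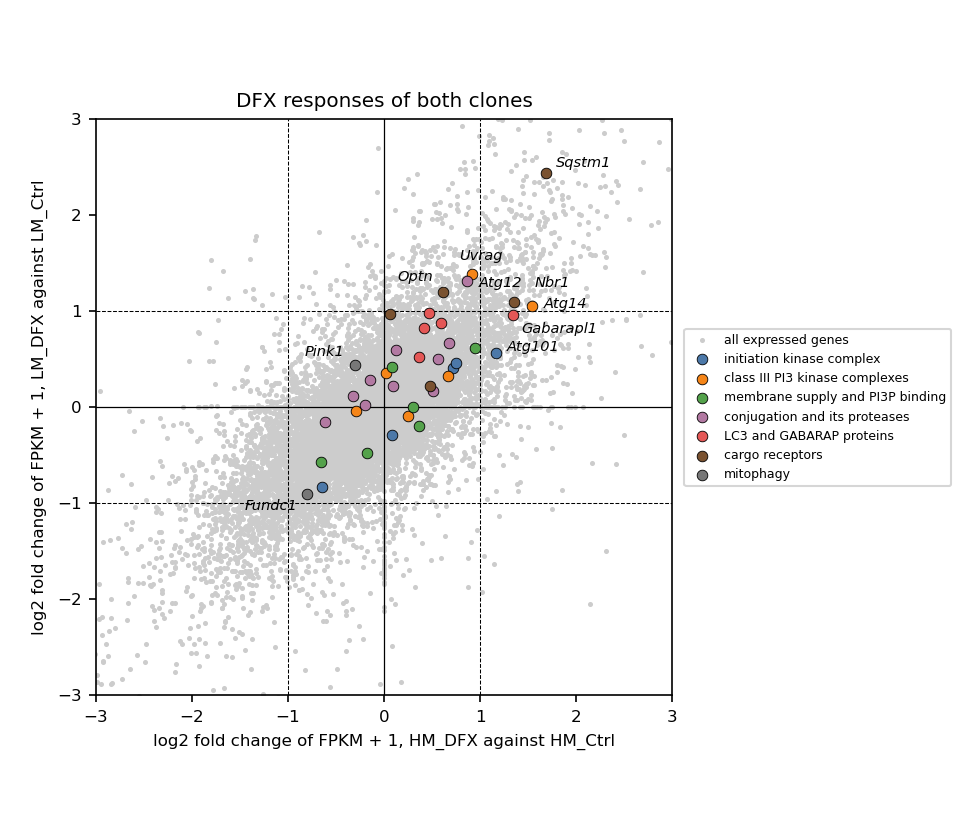
Log2 fold change of FPKM + 1 with DFX in HM cells (horizontal) against LM cells (vertical), with the 39 autophagy genes coloured by role over all expressed genes in grey, and broken lines at 2-fold. Sqstm1, Nbr1 and Atg14 lie past 2-fold in both clones, and 91 genes outside the axes are not drawn.

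Among the cargo receptors, Sqstm1 encodes p62, which gathers ubiquitinated proteins and also binds the NRF2 inhibitor KEAP1. Its level was 428 FPKM in HM_Ctrl against 1376 in HM_DFX, and 136 in LM_Ctrl against 744 in LM_DFX. It was thus higher in each DFX library than in either DMSO library. The ratio of DFX to DMSO was 3.22-fold in HM cells (95% counting interval 3.17 to 3.27) and 5.47-fold in LM cells (5.34 to 5.61). By level it was the 83rd gene of HM_Ctrl and the 18th of HM_DFX, and the 332nd of LM_Ctrl and the 48th of LM_DFX. Sqstm1 alone took 0.143% of the fragments in HM_Ctrl (exact 95% interval 0.142 to 0.145), 0.462% in HM_DFX (0.458 to 0.465), 0.0456% in LM_Ctrl (0.0446 to 0.0467) and 0.25% in LM_DFX (0.247 to 0.252). The antisense gene Mrnip covers 17.3% of the exon bases of Sqstm1 and stood between 3.14 and 7.33 FPKM, far below it.

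Nbr1, a receptor related to p62 that works with it on ubiquitinated cargo, was at 28.9 FPKM in HM_Ctrl against 75.6 in HM_DFX, and 16.6 in LM_Ctrl against 36.9 in LM_DFX. It too was higher with DFX in each clone, by 2.62-fold in HM (2.51 to 2.73) and 2.21-fold in LM cells (2.10 to 2.34). Optn, optineurin, a receptor for damaged mitochondria and bacteria, was at 12.4 FPKM in HM_Ctrl against 19.5 in HM_DFX, and 15.4 in LM_Ctrl against 36.8 in LM_DFX. Its ratio was 1.58-fold in HM cells (1.44 to 1.73) and 2.39-fold in LM cells (2.22 to 2.58), so that only the response in LM cells passed 2-fold. Calcoco1, a receptor related to NDP52 that acts in autophagy of the endoplasmic reticulum and Golgi, was at 13.0 FPKM in HM_Ctrl against 13.6 in HM_DFX, and 5.29 in LM_Ctrl against 11.3 in LM_DFX. The LM_Ctrl library stood apart as the low one. With DFX it was 2.14-fold higher in LM cells (1.89 to 2.44), a log2 fold change of 0.97 on the FPKM + 1 scale that stayed just under the call, and 1.04-fold in HM cells, where the interval held no difference (0.947 to 1.15). Tax1bp1, which also brings ubiquitinated cargo to LC3, had log2 fold changes of 0.48 and 0.23. All 5 receptors were above 0 in both clones under each scaling tried. Of all expressed genes, 33.5% were above 0 in both clones on the FPKM as deposited. Calcoco1 in HM cells was within counting error on the FPKM as deposited.

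**Figure D4:**
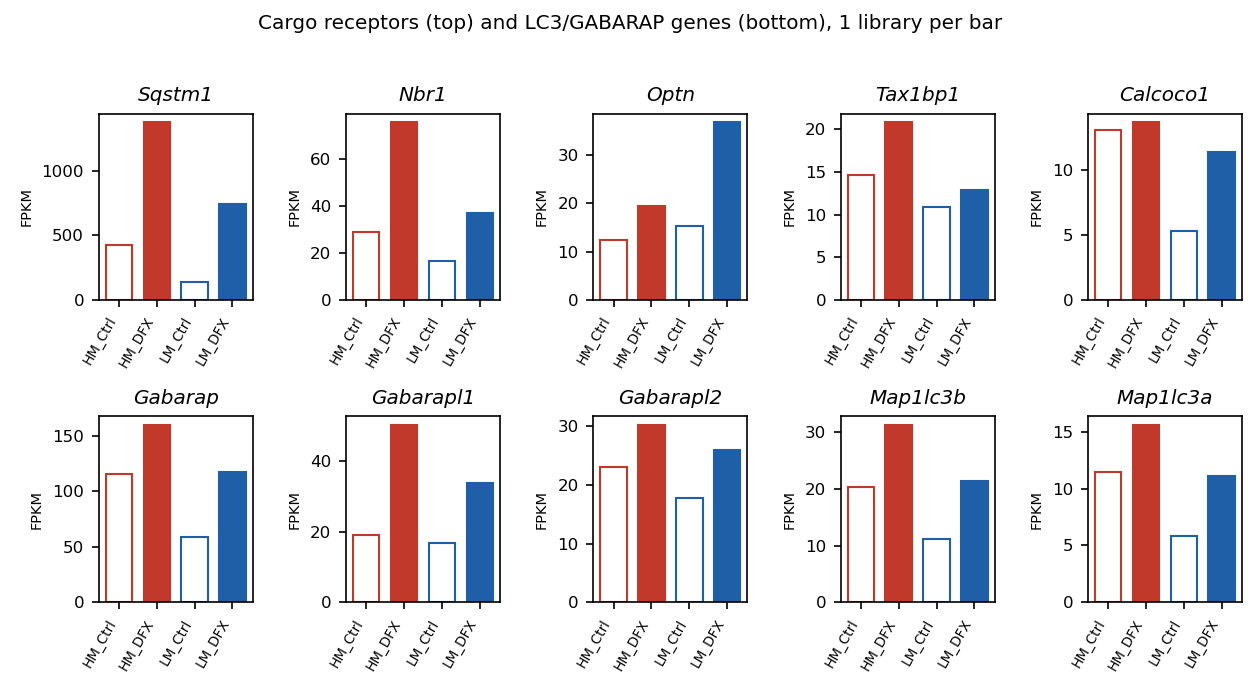
FPKM of the 5 cargo receptors and the 5 LC3 and GABARAP proteins in the 4 libraries, as bars on a linear axis with a panel and scale for each gene. In each clone the DFX library lies above the DMSO library for all 10 genes, with Calcoco1 in HM cells nearly level at 13.0 and 13.6 FPKM.

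The LC3 and GABARAP proteins are the ubiquitin-like proteins that are coupled to lipid on the autophagosome and bind the receptors. Gabarap was the most abundant of them, at 115 FPKM in HM_Ctrl against 159 in HM_DFX, and 58.9 in LM_Ctrl against 117 in LM_DFX, which was 60.8%, 55.6%, 53.4% and 56.0% of the summed level of the family. It was 1.39-fold higher with DFX in HM cells (1.32 to 1.45) and 1.99-fold in LM cells (1.89 to 2.11), so the HM_Ctrl and LM_DFX libraries ended near the same level. Gabarapl1, a close relative of Gabarap, stood at 19.2 FPKM in HM_Ctrl against 50.3 in HM_DFX, and 16.8 in LM_Ctrl against 33.8 in LM_DFX. Its ratio was 2.62-fold in HM cells (2.38 to 2.88) and 2.01-fold in LM cells (1.82 to 2.22). The latter had a log2 fold change of 0.97 on the FPKM + 1 scale and was not called. Gabarapl1 shares 25.2% of its 31-base words with other genes, mainly the antisense 1700101I11Rik at 0.160 to 0.783 FPKM, and is uncertain to that extent. In the family sum, Gabarapl1 was 10.2% in HM_Ctrl and 17.5% in HM_DFX, against 15.2% in LM_Ctrl and 16.1% in LM_DFX. Map1lc3a, Map1lc3b and Gabarapl2 had log2 fold changes between 0.37 and 0.60 in HM and between 0.52 and 0.88 in LM cells. All 5 genes of the family were above 0 in both clones under each scaling tried, beside 33.5% of all expressed genes on the FPKM as deposited. On the FPKM + 1 scale 1 in HM and none in LM cells passed 2-fold, against 6.93% and 7.09% of all expressed genes. With median-ratio scaling Gabarap and Gabarapl1 passed it in LM cells.

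In the ULK1 kinase complex, Atg101, which stabilises ATG13 within the complex, was at 18.4 FPKM in HM_Ctrl against 42.7 in HM_DFX, and 24.6 in LM_Ctrl against 36.9 in LM_DFX. Both DFX libraries lay above both DMSO libraries. The ratio was 2.32-fold in HM cells (2.04 to 2.63) and 1.5-fold in LM cells (1.34 to 1.68). Atg13, the adaptor that ties the kinase to its partners, was at 10.2, 17.4, 7.95 and 10.8 FPKM in HM_Ctrl, HM_DFX, LM_Ctrl and LM_DFX, 1.71-fold higher with DFX in HM (1.56 to 1.88) and 1.37-fold in LM cells (1.23 to 1.52). The scaffold Rb1cc1 (FIP200) had log2 fold changes of 0.75 and 0.46. The kinases themselves did not follow. Ulk1 had log2 fold changes of 0.08 in HM and −0.29 in LM cells, and its relative Ulk2 of −0.65 and −0.83. Counting intervals lay below no difference for Ulk2 in both clones and for Ulk1 in LM cells (0.783-fold, 0.693 to 0.883). Within 1 complex the partners of the kinase were thus higher with DFX, while Ulk2 was lower in both clones and Ulk1 in LM cells. No gene of the complex passed 2-fold in LM cells.

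Class III PI3 kinase exists in complexes that share Pik3c3, Pik3r4 and Becn1 and differ in Atg14, which directs the kinase to the forming autophagosome, or Uvrag, which directs it to endosomes and later steps. Both of these specific subunits were higher with DFX. Atg14 was at 7.53 FPKM in HM_Ctrl against 23.8 in HM_DFX, and 4.31 in LM_Ctrl against 10.1 in LM_DFX, 3.15-fold higher with DFX in HM (2.82 to 3.53) and 2.34-fold in LM cells (2.02 to 2.72). Uvrag was at 6.09 FPKM in HM_Ctrl against 12.4 in HM_DFX, and 3.10 in LM_Ctrl against 9.70 in LM_DFX, 2.03-fold higher in HM (1.87 to 2.20) and 3.13-fold in LM cells (2.82 to 3.48). On the FPKM + 1 scale Uvrag was called in LM cells at 1.38 and stayed below the call in HM cells at 0.91. The shared subunits moved less. Becn1, the regulatory subunit Beclin 1, was at 17.3 FPKM in HM_Ctrl against 20.8 in HM_DFX, and 16.2 in LM_Ctrl against 15.2 in LM_DFX. That is 1.20-fold in HM (1.13 to 1.28) and 0.939-fold in LM cells (0.883 to 0.999). Of the 31-base words of Becn1, 40.0% occur in other genes, mainly the antisense Cntd1 at 0.269 to 0.503 FPKM, and it is uncertain to that extent. The catalytic Pik3c3 (VPS34) had log2 fold changes of −0.29 and −0.04, the latter 0.00 with median-ratio scaling, and Pik3r4 (VPS15) of 0.02 and 0.36. Ambra1, a Beclin 1 partner, had 0.67 and 0.33.

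For membrane supply and PI3P binding no gene was called with DFX in either clone on the FPKM + 1 scale, although Atg2b was in HM cells with median-ratio scaling or a pseudocount of 0.1. Atg2b, a protein that transfers lipid to the growing membrane, was at 11.4 FPKM in HM_Ctrl against 23.1 in HM_DFX, and 11.3 in LM_Ctrl against 17.9 in LM_DFX. Its ratio was 2.02-fold in HM (1.91 to 2.13) and 1.58-fold in LM cells (1.49 to 1.67), with a log2 fold change of 0.95 in HM cells on the FPKM + 1 scale. Wipi2, the PI3P reader that recruits ATG16L1, was at 15.8 FPKM in HM_Ctrl against 20.7 in HM_DFX, and 13.5 in LM_Ctrl against 11.7 in LM_DFX, higher with DFX in HM cells (1.31-fold, 1.24 to 1.38) and lower in LM cells (0.868-fold, 0.820 to 0.918). The related Wipi1 was lower with DFX in both clones, with log2 fold changes of −0.66 and −0.57. Atg2a, Atg9a, which is the membrane-spanning scramblase, and the WIPI relative Wdr45 lay between −0.18 and 0.31 in HM and between −0.47 and 0.43 in LM cells. For Atg9a, 32.4% of 31-base words are shared with other genes, mainly Gm29253, which was listed at 0 in all libraries, and Atg9a is uncertain to that extent.

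Of the 10 conjugation enzymes, their ubiquitin-like partner and the ATG4 proteases that process LC3, 1 passed 2-fold in LM and none in HM cells. The shares of all expressed genes at least 2-fold higher with DFX were 7.09% in LM and 6.93% in HM cells. Atg12, the ubiquitin-like protein joined to ATG5, was at 19.8 FPKM in HM_Ctrl against 36.7 in HM_DFX, and 10.4 in LM_Ctrl against 27.3 in LM_DFX. It was 1.86-fold higher with DFX in HM (1.7 to 2.03) and 2.63-fold in LM cells (2.36 to 2.94), and both DFX libraries lay above both DMSO libraries. Atg5 was at 10.1, 16.7, 10.5 and 17.4 FPKM in HM_Ctrl, HM_DFX, LM_Ctrl and LM_DFX, alike in both clones at 1.66-fold (1.46 to 1.89) and 1.65-fold (1.46 to 1.86). Atg16l1, the third part of the ATG12-ATG5-ATG16L1 ligase, had log2 fold changes of 0.56 and 0.50. All parts of that ligase were therefore higher with DFX beyond counting error in each clone. The E1-like Atg7 had 0.13 and 0.60, and the E2-like Atg3 had 0.51 and 0.17. The E2-like Atg10, on 18 to 50 fragments a library, had −0.14 and 0.28 with counting intervals that held no difference. The proteases Atg4a, Atg4b, Atg4c and Atg4d lay between −0.61 and 0.09 in HM and between −0.15 and 0.22 in LM cells, with Atg4d the lowest. The antisense gene Kri1 covers 19.3% of the exon bases of Atg4d. Kri1 stood between 11.3 and 17.9 FPKM, above Atg4d at 2.2 to 3.9, so the values of Atg4d are uncertain if strand was ignored in counting. For Atg4a, 60.8% of 31-base words are shared, mainly with the pseudogene Atg4a-ps, so its values are uncertain.

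The mitophagy genes Pink1 and Fundc1 were both lower with DFX in HM cells but went in different directions in LM cells. Pink1, the kinase that marks damaged mitochondria, was at 13.2 FPKM in HM_Ctrl against 10.5 in HM_DFX, and 5.49 in LM_Ctrl against 7.85 in LM_DFX. With DFX it was 0.796-fold in HM cells (0.699 to 0.904) and 1.43-fold in LM cells (1.22 to 1.68), that is, in opposite directions. Fundc1, a mitochondrial receptor that binds LC3 in hypoxia, was at 11.2 FPKM in HM_Ctrl against 5.98 in HM_DFX, and 12.1 in LM_Ctrl against 6.04 in LM_DFX. It was lower with DFX in both clones, 0.535-fold (0.451 to 0.634) and 0.498-fold (0.429 to 0.577). Its log2 fold changes of −0.80 and −0.90 were the lowest of the 39 genes in each clone and were not called.

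The difference between the clones was then compared without and with DFX. These comparisons use the same libraries as the DFX comparisons, so their values are not independent of them. Without DFX, HM_Ctrl exceeded LM_Ctrl by at least 2-fold for 3 genes (Sqstm1, Calcoco1 and Pink1), or 7.69%, against 3.65% of all expressed genes, and none was at least 2-fold lower, against 3.15%. The median log2 fold change of the 39 genes was 0.24, beside 0.01 for all expressed genes. Sqstm1 was 3.14-fold higher in HM_Ctrl (3.06 to 3.23), Calcoco1 2.46-fold (2.17 to 2.80) and Pink1 2.41-fold (2.06 to 2.82). Next to the call were Gabarap, at 1.95-fold (1.84 to 2.07) and a log2 fold change of 0.95 on the FPKM + 1 scale, and Map1lc3a and Atg12, both at 0.87. Of the 39 genes, 30 were above 0 in HM_Ctrl against LM_Ctrl (76.9%), against 51.4% of all expressed genes. They included all 5 LC3 and GABARAP genes and all 6 genes of the class III PI3 kinase complexes. Atg3 and Atg101 were the lowest, both at −0.40.

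With DFX, HM_DFX exceeded LM_DFX by at least 2-fold for 2 genes, Atg14 (2.36-fold, 2.15 to 2.58) and Nbr1 (2.05-fold, 1.98 to 2.12). That is 5.13%, against 3.31% of all expressed genes, and none was at least 2-fold lower, against 5.05%. The median was 0.32, beside −0.05 for all expressed genes. Sqstm1 was 1.85-fold higher in HM_DFX (1.83 to 1.87), less than the ratio between the DMSO libraries. Optn was the lowest of the 39, at 0.531-fold (0.494 to 0.569), and it was also lower in HM_Ctrl than in LM_Ctrl at 0.805-fold (0.731 to 0.887). Calcoco1, 2.46-fold apart between the DMSO libraries, was 1.20-fold apart between the DFX libraries (1.09 to 1.32), and Pink1 1.34-fold (1.17 to 1.54). Of the 39 genes, 27 were above 0 in HM_DFX against LM_DFX (69.2%), against 45.0% of all expressed genes. They included all 5 genes of the ULK1 complex, from 0.11 for Ulk2 to 0.82 for Ulk1.

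**Figure D5:**
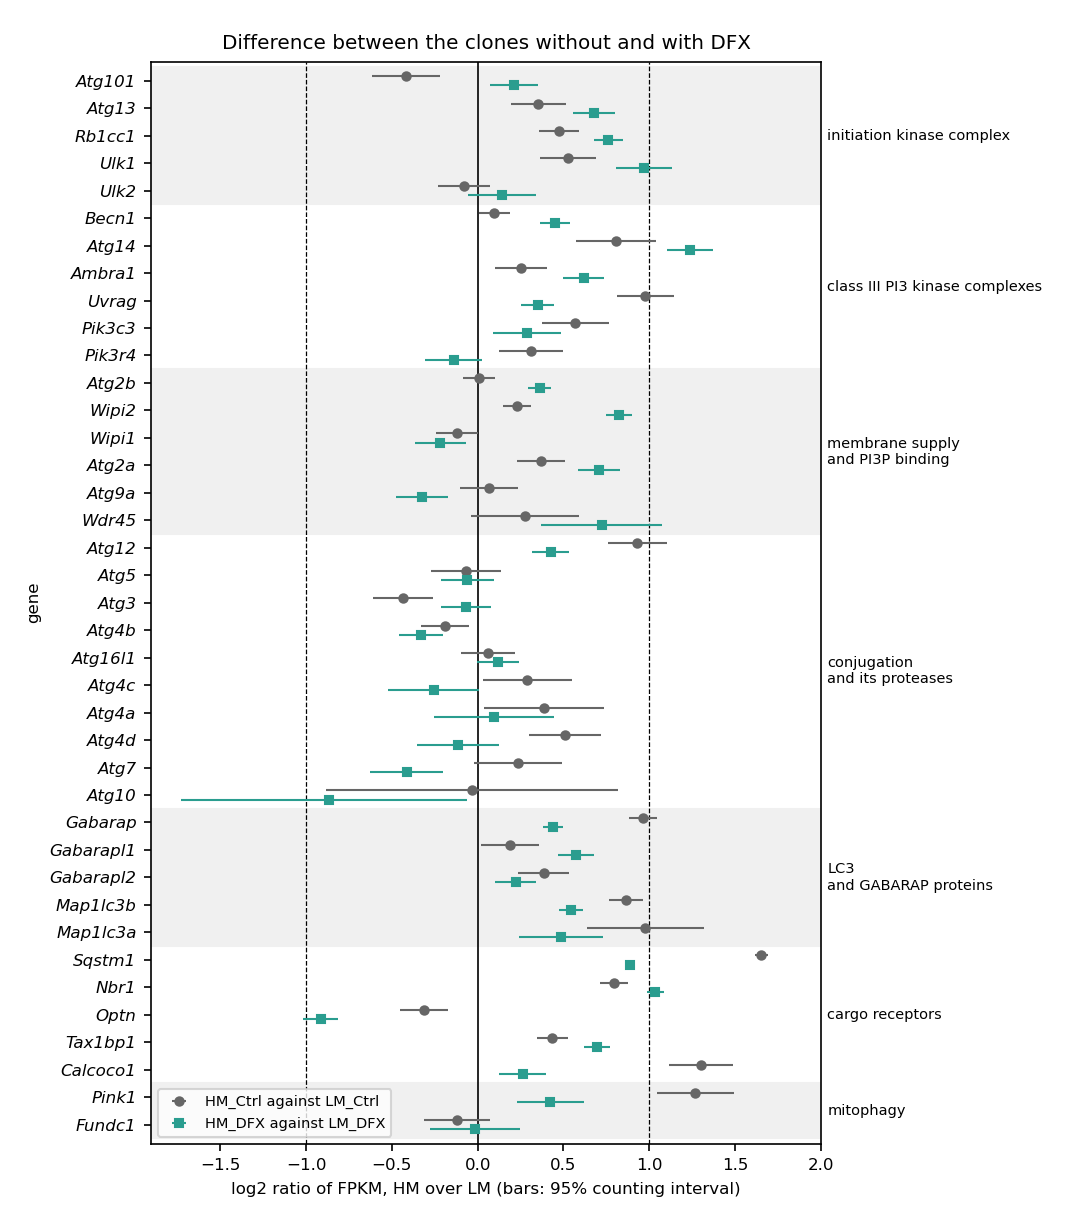
Log2 ratio of FPKM in HM over LM cells for the 39 autophagy genes, without DFX (circles) and with DFX (squares), with bars for the 95% counting interval and broken lines at 2-fold. Sqstm1, Calcoco1 and Pink1 lie right of 2-fold without DFX and closer to 0 with it, and Optn lies left of 0 in both.

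The response in HM minus the response in LM cells, on the log2 scale of FPKM + 1, passed 2-fold for none of the 39 genes in either direction, against 3.52% of all expressed genes higher and 5.38% lower. The median was −0.09, beside −0.08 for all expressed genes. Of the 39 genes, 19 were above 0 (48.7%) and 20 below, beside 43.5% of all expressed genes above 0. With median-ratio scaling both medians were −0.01. The largest difference was that of Calcoco1 at −0.91, followed by Sqstm1 at −0.76, Pink1 at −0.75 and Optn at −0.59, all with a higher response in LM cells. Each value is also the clone difference with DFX minus that without it. For Calcoco1, Sqstm1 and Pink1 it therefore restates the smaller clone difference with DFX. At the other end were Atg101 at 0.60 and Wipi2 at 0.56. Most of all expressed genes were thus below 0, which is the background for the counts by role. By role, all 5 genes of the ULK1 complex were above 0, with a median of 0.31. Below 0 were 7 of the 10 conjugation genes and 4 of the 5 LC3 and GABARAP genes, with medians of −0.32 and −0.29. Gabarapl1 was the exception in the last group, at 0.38. These differences were not tested.

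Another 61 genes of the pathway, on 4 lists of further receptors, fusion and late steps, other early factors and regulators, gave 57 expressed genes. In HM cells 5 of the 57 were at least 2-fold higher with DFX and 3 lower, beside the 6.93% and 12.4% of all expressed genes given above. In LM cells 9 were higher and 3 lower, beside 7.09% and 8.72%. The response in HM minus that in LM cells was at least 2-fold lower for 7 of the 57 and higher for none. The shares of all expressed genes were 5.38% and 3.52%. Bnip3, a hypoxia-induced mitophagy receptor, was at 85.3 FPKM in HM_Ctrl against 171 in HM_DFX, and 28.0 in LM_Ctrl against 205 in LM_DFX, with log2 fold changes of 0.99 in HM and 2.83 in LM cells. Its relative Bnip3l (NIX) had 0.41 and 1.49. Of the other receptors, Stbd1, which binds glycogen, had 1.59 and 2.61, and Tollip, a receptor for ubiquitinated protein aggregates, 1.12 and 1.06. Among the late steps only Epg5, a tether for fusion with the lysosome, passed 2-fold, at 1.21 and 1.66. Of the other early factors, Trp53inp1, a p53 target that binds LC3, had 1.22 and 1.71, while Zfyve1, a PI3P-binding marker of the membrane where autophagosomes form, had 0.27 and 1.15. Tecpr1 had −0.89 and 1.15. Of the regulators, Foxo3, a transcription factor for autophagy genes, had 1.77 and 2.01. Lower with DFX were Foxo4 at −1.17 and −1.29, Bcl2, which binds Beclin 1, at −1.46 and −1.09, its relative Bcl2l1 at −2.09 and −0.58, and Prkag2, a subunit of AMP-activated kinase, at −0.47 and −1.06.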

How the data were processed

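RNA was measured in 4 libraries, 1 for each condition. The authors selected poly(A) RNA (their methods also mention depletion of ribosomal RNA), made directional paired-end libraries and deposited FPKM per gene. FastQC, Trimmomatic, HISAT2 and featureCounts, with the build mm10, are in the submitters' processing notes. Versions, the strand setting and the annotation release are not given in the sources used here, and where strand was ignored, overlapping antisense genes share fragments. The authors' edgeR calls were not repeated, since 1 library per condition gives no spread.

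Ratios of the deposited FPKM, each with a pseudocount of 1, were taken for genes at 1 FPKM or more in at least 1 library, and called at 2-fold. Coordinates of 45128 genes equal those of GENCODE M21. With its exon lengths, the FPKM of 96.8% of 18236 genes above 0 gave whole fragments within 0.02 of a whole number. Fragments of 33 of the 39 genes were whole at these lengths, and of the other 6 (Atg2b, Atg10, Atg12, Atg14, Atg101 and Calcoco1) at a length solved from their values. They ranged from 18 to 66338 a gene and library, and gave exact Clopper-Pearson 95% intervals of the ratio, without a pseudocount, for counting error only.

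The 39 genes and all lists were chosen with earlier results of these data known. Given in full are genes past 2-fold in any comparison and the 2 of each role with the highest mean FPKM, and from the other pathway lists those past 2-fold with DFX. Other genes named were chosen after their values were seen. A gene with over 20% of its 31-base words in another gene was called uncertain. Alternatives tried were median-ratio scaling, thresholds of 1.5-fold and 4-fold, a 75th-percentile scaling, a mean of at least 1 FPKM, no filter, protein-coding genes only, and 0.1 as the pseudocount. Python 3.11.15, numpy 2.4.6, pandas 2.3.3, scipy 1.17.1 and matplotlib 3.10.9 were used. The calling was tested on simulated counts that held counting error only and planted changes of 4-fold. That test does not cover variation between cultures or changes near 2-fold.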

Additional observations from a re-analysis of the deposited data

Results flagged for a closer look

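The DFX responses of 3 genes had opposite directions in the clones, each beyond counting error. That is 7.69% of the 39, against 7.97% of the 10186 expressed genes with whole fragments. With 1 library per condition, these differences were not tested. Becn1 had a log2 fold change of 0.25 in HM and −0.09 in LM cells, a difference of 0.34, and shares sequence with the antisense Cntd1. With median-ratio scaling its value in LM cells was −0.04 and the counting interval held 0 (−0.13 to 0.05), so the opposite direction was then within counting error, while those of Wipi2 and Pink1 stayed beyond it. Wipi2 had 0.37 in HM and −0.19 in LM cells, a difference of 0.56. Pink1 had −0.30 in HM and 0.45 in LM cells, a difference of −0.75.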

How the results depend on the processing

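The medians of the 39 genes kept their direction in the 4 comparisons of libraries under each pseudocount, filter and scaling tried. That of the HM response minus the LM response went from −0.09 to −0.01 with median-ratio scaling. No gene called at 2-fold was lost with another pseudocount or scaling. A pseudocount of 0.1 called 7 genes higher with DFX in HM cells (adding Atg2b and Uvrag), against 9.74% of all expressed genes, and 8 in LM cells (adding Calcoco1 and Gabarapl1), against 10.6%. It also called 1 gene, Calcoco1, with a response at least 2-fold lower in HM than in LM cells, against 10.5%. Median-ratio scaling moved the median of all expressed genes in HM cells with DFX from −0.10 to 0.00 and that of the 39 genes from 0.37 to 0.50. It called 7 genes higher in HM (adding Atg2b and Uvrag), against 8.90% of all genes, and 9 in LM cells (adding Calcoco1, Gabarap and Gabarapl1), against 7.66%. Under it the sign changed for differences near 0, those of Atg2b without DFX, of Atg3, Atg5 and Fundc1 between the clones with DFX, and of Pik3c3 with DFX in LM cells. For Fundc1 it also changed with scaling to the 75th percentile.

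The counts followed the threshold, by its construction. At 1.5-fold, 14 genes were higher and 4 lower with DFX in HM cells, against 16.03% and 26.02% of all genes, and 14 higher and 2 lower in LM cells, against 16.48% and 19.95%. HM_Ctrl was higher than LM_Ctrl for 10 genes, against 10.5%. HM_DFX was higher than LM_DFX for 9 and lower for 1, against 9.95% and 14.6%. The response was higher in HM than in LM cells for 1 and lower for 4, against 9.77% and 16.4%. At 4-fold, 0 genes were higher in HM cells with DFX, 1 in LM cells (Sqstm1), 0 in HM_Ctrl against LM_Ctrl and 0 in HM_DFX against LM_DFX, beside 0.876%, 1.42%, 0.332% and 0.284% of all genes. No paired analysis was possible because the labels carry no replicate numbers and each condition is 1 library, and for the same reason no library could be left out. Depth limits Atg10 most, with 18 to 50 fragments a library.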
